A study of Homo sapiens with 3 samples.

Results

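CAD, DHODH and UMPS are the 3 genes that encode the enzymes of de novo pyrimidine synthesis, and 30 of the 29698 gene-targeting guides counted in this pooled CRISPR knockout screen were directed against them, 10 per gene. All guides listed under these gene names were taken. The genes themselves were chosen on their depletion in DMSO and on their ratio of apilimod to DMSO in these same counts, so every value below is a description and none was put to a test. Of the 30 guides, 27 had at least 100 counts in the initial population and entered the gene scores, namely 10 for CAD, 9 for DHODH and 8 for UMPS.

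De novo synthesis builds the pyrimidine ring from glutamine, bicarbonate and aspartate and ends at UMP, the precursor of the uridine, cytidine and thymidine nucleotides that cells need for RNA, DNA and sugar-nucleotide synthesis. CAD is a large cytosolic protein that carries out the opening steps with its carbamoyl-phosphate synthetase, aspartate transcarbamylase and dihydroorotase activities. DHODH, in the inner mitochondrial membrane, oxidizes dihydroorotate to orotate and passes the electrons to ubiquinone, which ties the pathway to the respiratory chain. UMPS joins orotate to phosphoribosyl pyrophosphate (PRPP) and removes the carboxyl group to give UMP. Cells can also make UMP by taking up and phosphorylating uridine, the salvage route.

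The screen was done in MIA PaCa-2, an established human pancreatic ductal adenocarcinoma cell line, transduced with a pooled lentiviral library against metabolic genes and selected with puromycin. Guides were counted in cells grown for 14 days with apilimod, which blocks the endosomal lipid kinase PIKfyve, in cells grown for 14 days with the solvent DMSO, and in the untreated initial population at day 0, with 1 library for each. The labels give 200 nM for the apilimod arm, whereas the methods of the study give a lower concentration for a screen of this design, so the dose is uncertain. The comparison asks which gene losses are tolerated better or worse when PIKfyve is inhibited, and all 3 populations carry the same guide library. Guide counts hold no expression values, so the identity of the cell line was not checked here.

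In the hg38 build with the GENCODE 44 annotation, CAD lies on chromosome 2 from 27217369 to 27243943 and its MANE Select transcript has 44 exons. DHODH lies on chromosome 16 from 72008588 to 72027664 with 9 exons, and UMPS on chromosome 3 from 124730433 to 124749273 with 6 exons. All of these genes are on the plus strand. The guides are known here by number alone, so the exon each of them cuts was not analysed here.

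The libraries held 25599416 counts in apilimod, 26276517 in DMSO and 24695476 in the initial population, with a median of 655, 663 and 651 counts per guide in that order. Log2 ratios compare counts as a share of the library total after adding 1 count, and a gene score is the mean over its guides, given with the SD over guides. Guides are not replicates of a condition, so this SD describes how unlike the guides of a gene were. At these depths a count of 0 allows up to 0.117 CPM in apilimod and 0.114 CPM in DMSO (CPM being counts scaled to the library total, and the limit being 3 counts per library), and folds against a 0 are bounds computed at those 3 counts. The 95% intervals for single guides and sums are exact (Clopper-Pearson) and cover counting error only, because amplified reads without molecular identifiers are not independent cells. The 487 control guides that cut between genes and passed the minimum had a median log2 change against the initial population of 0.22 in apilimod and 0.14 in DMSO.

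By gene score the pathway was depleted in both 14-day arms, and less so in apilimod. Single guides differed, and 5 of the 27 scored guides had a lower share in apilimod than in DMSO. Mean log2 changes from the initial population in apilimod were −3.10 ± 2.64 for CAD (SD, n = 10 guides), −2.34 ± 1.93 for DHODH (n = 9 guides) and −2.11 ± 1.67 for UMPS (n = 8 guides). In DMSO they were −4.36 ± 2.71, −3.69 ± 2.63 and −2.99 ± 2.51 in the same order of genes. Of the 2969 genes with at least 6 guides, CAD had the lowest score in DMSO, DHODH the 4th lowest and UMPS the 10th lowest. In apilimod these genes were 9th, 37th and 50th from the bottom. Scores at least 2-fold below the initial population were seen for 3 of 3 genes in apilimod, against 7.07% of all genes, and for 3 of 3 genes in DMSO, against 5.73% of all genes. The genes were picked on these contrasts, so nothing is read from those shares.

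**Figure D1:**
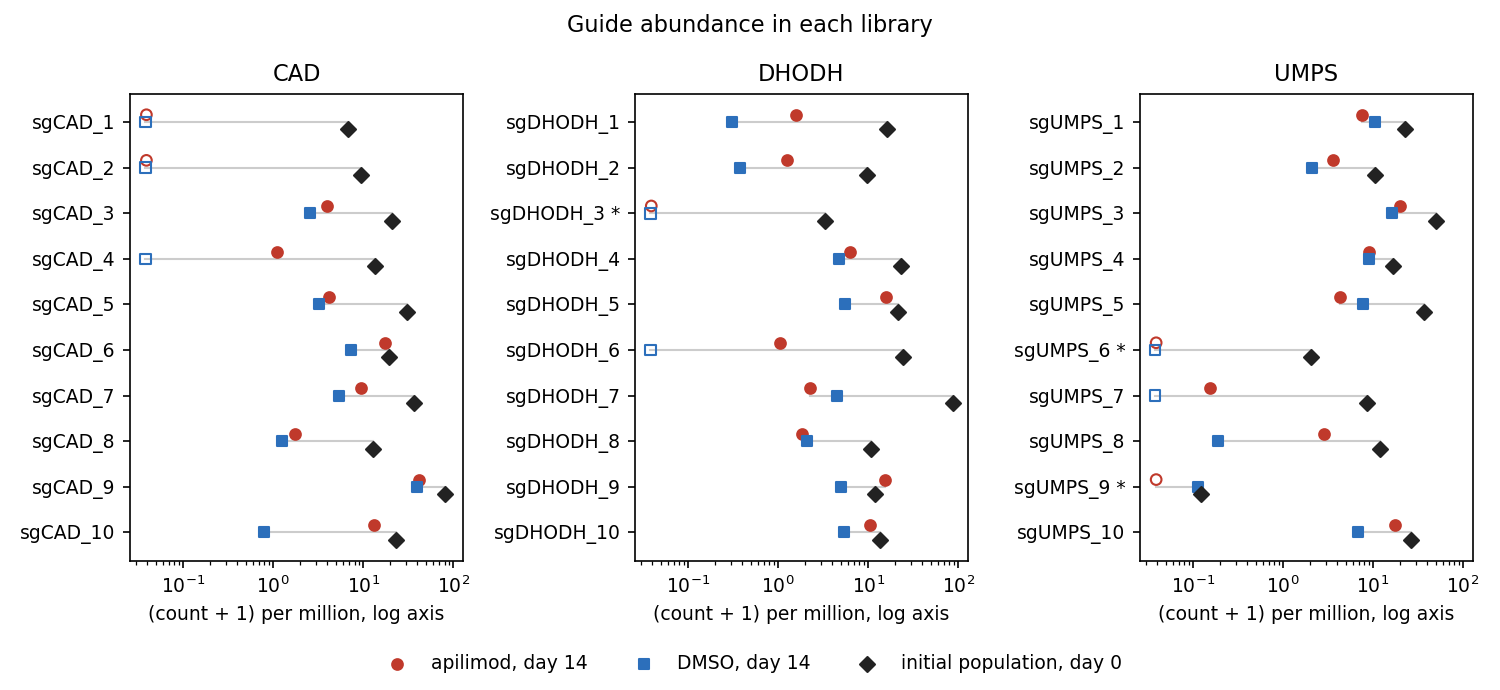
Abundance of each of the 30 guides against CAD, DHODH and UMPS in the apilimod, DMSO and initial libraries, on a log axis of counts relative to the library total after adding 1 count, with 1 row per guide. Open symbols mark 0 counts and asterisks guides under 100 initial counts, and sgCAD_4 and sgDHODH_6 stand at 27 and 26 counts in apilimod and at 0 in DMSO.

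By mean score CAD was the most depleted gene in DMSO, and all 10 of its guides were at least 2-fold below the initial population there. The guides were nevertheless very unlike, from loss of all counts to a change of about 2-fold. sgCAD_1 had 0 counts in apilimod, 0 in DMSO and 168 in the initial population. sgCAD_2 had 0 counts in apilimod, 0 in DMSO and 232 in the initial population. Both were therefore at or below the detection floor in each arm, at least 58.05-fold and 80.2-fold lower in apilimod and at least 59.6-fold and 82.3-fold lower in DMSO than in the initial population, and no ratio between the arms can be given for them. sgCAD_4 had 27 counts in apilimod, 0 in DMSO and 330 in the initial population. This guide was at least 117-fold lower in DMSO than in the initial population and at least 9.24-fold higher in apilimod than in DMSO.

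Among the CAD guides that kept counts in both arms, sgCAD_10 stood apart. It had 340 counts in apilimod, 20 in DMSO and 569 in the initial population, a ratio of apilimod to DMSO of 17.4 (95% counting interval 11.1 to 28.9). sgCAD_6 had 446 counts in apilimod, 189 in DMSO and 482 in the initial population, a ratio of 2.42 (2.04 to 2.89). With sgCAD_4, these were the CAD guides at least 2-fold higher in apilimod than in DMSO. sgCAD_7 had 242 counts in apilimod, 140 in DMSO and 909 in the initial population, a ratio of 1.77 (1.44 to 2.20). sgCAD_3 had 100 counts in apilimod, 66 in DMSO and 509 in the initial population, a ratio of 1.56 (1.13 to 2.16). For sgCAD_7 and sgCAD_3 the counting interval lay above 1, and for the remaining CAD guides it spanned 1. sgCAD_8 had 44 counts in apilimod, 32 in DMSO and 312 in the initial population, a ratio of 1.41 (0.875 to 2.30). sgCAD_5 had 106 counts in apilimod, 84 in DMSO and 748 in the initial population, a ratio of 1.295 (0.964 to 1.75). sgCAD_9 had 1075 counts in apilimod, 1040 in DMSO and 2022 in the initial population, a ratio of 1.06 (0.973 to 1.16). sgCAD_9 was thus the most abundant CAD guide in all 3 libraries and the least depleted in DMSO, its log2 change being −0.96 for apilimod and −1.05 for DMSO.

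DHODH guides were depleted in DMSO to very unlike degrees, from 0 counts for sgDHODH_6 to a log2 change of −1.27 for sgDHODH_9, and all 9 scored guides were at least 2-fold below the initial population. sgDHODH_6 had 26 counts in apilimod, 0 in DMSO and 603 in the initial population. It was at least 214-fold lower in DMSO than in the initial population and at least 8.90-fold higher in apilimod than in DMSO. Its 26 counts in apilimod still corresponded to a log2 change of −4.54 from the initial population, so it was strongly depleted in both arms. sgDHODH_1 had 39 counts in apilimod, 7 in DMSO and 398 in the initial population, a ratio of apilimod to DMSO of 5.72 (2.53 to 15.2). sgDHODH_2 had 31 counts in apilimod, 9 in DMSO and 242 in the initial population, a ratio of 3.54 (1.64 to 8.44). For these guides the counting intervals were wide, since they rest on fewer than 10 counts in DMSO.

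The next DHODH guides had more than 100 counts in each library. sgDHODH_9 had 393 counts in apilimod, 130 in DMSO and 295 in the initial population, a ratio of 3.10 (2.54 to 3.81). sgDHODH_5 had 405 counts in apilimod, 146 in DMSO and 534 in the initial population, a ratio of 2.85 (2.35 to 3.46). sgDHODH_9 was the only scored guide of these genes above its initial share in apilimod, its log2 change being 0.36 for apilimod and −1.27 for DMSO. sgDHODH_10 had 270 counts in apilimod, 139 in DMSO and 332 in the initial population, a ratio of 1.99 (1.62 to 2.46). sgDHODH_4 had 158 counts in apilimod, 125 in DMSO and 578 in the initial population, a ratio of 1.30 (1.02 to 1.65). The last pair of scored guides pointed the other way. sgDHODH_8 had 46 counts in apilimod, 54 in DMSO and 266 in the initial population, a ratio of 0.874 (0.577 to 1.32) whose interval spans 1. sgDHODH_7, the most abundant DHODH guide at the start, had 57 counts in apilimod, 117 in DMSO and 2144 in the initial population, a ratio of 0.5001 (0.358 to 0.692). The gene with the highest mean ratio of apilimod to DMSO thus held a guide whose counting interval lay wholly below 1. sgDHODH_3, with 81 initial counts, was left out of the score and had 0 counts in both arms.

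UMPS guides divided more evenly between the directions. sgUMPS_8 had 72 counts in apilimod, 4 in DMSO and 293 in the initial population, a ratio of apilimod to DMSO of 18.5 (6.91 to 69.6). sgUMPS_10 had 453 counts in apilimod, 177 in DMSO and 651 in the initial population, a ratio of 2.63 (2.20 to 3.14). sgUMPS_7 had 3 counts in apilimod, 0 in DMSO and 211 in the initial population. This guide was at least 74.8-fold lower in DMSO than in the initial population, and both arms were at or below the floor, so no fold between them is given. It still enters the mean at a log2 ratio of 2.04 through the added count. sgUMPS_2 had 90 counts in apilimod, 54 in DMSO and 262 in the initial population, a ratio of 1.71 (1.21 to 2.44). sgUMPS_3 had 505 counts in apilimod, 429 in DMSO and 1228 in the initial population, a ratio of 1.21 (1.06 to 1.38). These guides were the UMPS guides with more counts in apilimod than in DMSO, and the others had fewer. sgUMPS_4 had 229 counts in apilimod, 237 in DMSO and 414 in the initial population, a ratio of 0.992 (0.823 to 1.19). sgUMPS_1 had 190 counts in apilimod, 277 in DMSO and 553 in the initial population, a ratio of 0.704 (0.582 to 0.850). sgUMPS_5 had 108 counts in apilimod, 205 in DMSO and 899 in the initial population, a ratio of 0.541 (0.424 to 0.686). For sgUMPS_1 and sgUMPS_5 the interval lay below 1, and sgUMPS_4 was the scored guide of these genes least depleted in DMSO, at a log2 change of −0.89. Of the guides under the minimum, sgUMPS_6 had 0 counts in apilimod, 0 in DMSO and 50 in the initial population. sgUMPS_9 had 0 counts in apilimod, 2 in DMSO and 2 in the initial population, too few to show any difference.

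Counted over the 27 scored guides, 19 were at least 2-fold below the initial population in apilimod, against 11.9% of all gene-targeting guides, and 26 were so in DMSO, against 9.97%. By gene, 7 CAD, 6 DHODH and 6 UMPS guides passed this fold in apilimod, and 10, 9 and 7 in DMSO. The log2 changes of single guides in apilimod and in DMSO had a Spearman correlation of 0.75 over 10 CAD guides, 0.90 over 9 DHODH guides and 0.67 over 8 UMPS guides. Both changes are taken from the same initial count, which the correlation shares.

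Summed over the scored guides, which gives the abundant guides most weight, CAD guides had 2380 counts in apilimod, 1571 in DMSO and 6281 in the initial population. The share left was 36.6% (34.9 to 38.3) in apilimod and 23.5% (22.2 to 24.8) in DMSO. DHODH guides had 1425 counts in apilimod, 727 in DMSO and 5392 in the initial population, and 25.5% (24.0 to 27.0) was left in apilimod and 12.7% (11.7 to 13.7) in DMSO. On this measure DHODH had the lowest share left in both arms, but the order of CAD and DHODH rested on single guides. Without sgDHODH_7 the DHODH share was 40.6% in apilimod and 17.7% in DMSO, and without sgCAD_9 the CAD share was 29.6% in apilimod and 11.7% in DMSO. UMPS guides had 1650 counts in apilimod, 1383 in DMSO and 4511 in the initial population, and 35.3% (33.3 to 37.3) was left in apilimod and 28.8% (27.1 to 30.6) in DMSO. The ratio of apilimod to DMSO of these sums was 1.56 (1.46 to 1.66) for CAD, 2.01 (1.84 to 2.20) for DHODH and 1.22 (1.14 to 1.32) for UMPS. All of these intervals lie above 1 for counting error. That alone says little, since single-guide intervals lay above 1 for 35.2% of all gene-targeting guides with counts and below 1 for 41.6%. The same shares were not taken for sums over genes. The ratio of the sums was 2.52 for CAD without sgCAD_9 and 1.02 for UMPS without sgUMPS_10, and the spread between cultures is unknown with 1 library per arm.

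**Figure D2:**
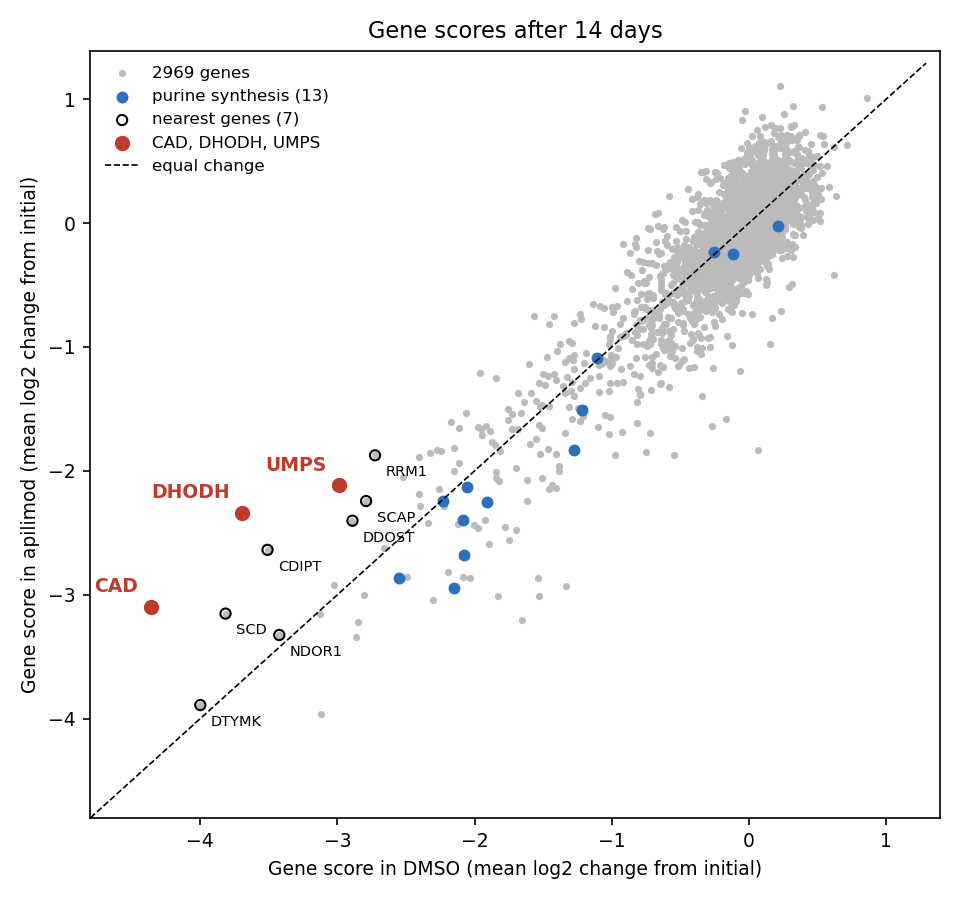
Gene scores of 2969 genes, as the mean log2 change of their guides from the initial population, with apilimod on the vertical and DMSO on the horizontal axis, purine synthesis genes in blue and the genes nearest to the 3 enzymes circled. CAD, DHODH and UMPS are named and lie at the depleted end in DMSO and above the line of equal change, at −3.10, −2.34 and −2.11 in apilimod and −4.36, −3.69 and −2.99 in DMSO.

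The mean log2 ratio of apilimod to DMSO was 1.26 ± 1.73 for CAD (SD, n = 10 guides), 1.35 ± 1.66 for DHODH (n = 9 guides) and 0.87 ± 1.56 for UMPS (n = 8 guides). DHODH and CAD ranked 1st and 2nd of 2969 genes on this mean and UMPS 6th. They were the 2 genes whose mean was at least 2-fold higher in apilimod, 0.0674% of all genes. The SD over guides exceeded the mean for each gene. Medians over guides were 0.56 for CAD, 1.50 for DHODH and 0.52 for UMPS. Leaving out sgCAD_4 gave a CAD mean of 0.87 and leaving out sgCAD_10 gave 0.95, both under 2-fold. The DHODH mean was 0.92 without sgDHODH_6, also under 2-fold, and the UMPS mean was 0.44 without sgUMPS_8. For guides with more than 3 counts in both arms, the means were 1.10 for CAD (7 guides), 0.92 for DHODH (8 guides) and 0.70 for UMPS (7 guides).

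At the level of single guides, 11 of 27 were at least 2-fold higher in apilimod than in DMSO, against 6.69% of all gene-targeting guides, and 0 of 27 were at least 2-fold lower, against 5.34%. The 11 were 3 CAD, 5 DHODH and 3 UMPS guides, and they include sgUMPS_7, which rests on 3 counts. Of the 25 guides with counts in at least 1 arm, 20 had a higher share of the library in apilimod than in DMSO, against 46.7% of all gene-targeting guides with counts. sgCAD_1 and sgCAD_2, at 0 in both arms, enter the CAD mean at a log2 ratio of 0.04 that comes from the library totals alone. The counting interval of the ratio lay above 1 for 16 of the 25 guides, against 35.2% of all gene-targeting guides, and below 1 for 3, against 41.6%. It spanned 1 for the other 6. These shares use the contrast on which the genes were chosen, so nothing is read from them. A score of the kind used in the study, which scales each arm so that control guides have a median of 0 and a list of 24 other nucleotide synthesis genes a median of −1, gave z values of 6.84 for CAD, 6.74 for DHODH and 4.69 for UMPS. These ranked 1st, 2nd and 4th of 2969 genes, on the contrast used to choose the genes. The scaling divided apilimod scores by 1.72 and DMSO scores by 1.46, which raises the z of a gene depleted equally in both arms. From unscaled scores the z values were 4.57 for CAD, 4.89 for DHODH and 3.17 for UMPS. On the scaled axis CAD stood at −1.93 in apilimod and −3.08 in DMSO, DHODH at −1.49 and −2.63, and UMPS at −1.36 and −2.14, each with apilimod before DMSO.

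Among guides of other genes that were strongly depleted in DMSO, ratios of at least 2-fold were common. Of 829 guides of other genes at least 4-fold lower in DMSO than in the initial population, 33.8% were at least 2-fold higher in apilimod, and both measures use the same DMSO count. Among the guides of CAD, DHODH and UMPS, 18 were that depleted and 7 of them were at least 2-fold higher. The less depleted scored guides are outside this comparison. Of those, sgCAD_6, sgDHODH_5, sgDHODH_9 and sgUMPS_10 were at least 2-fold higher and the rest were not. The median log2 ratio was 0.70 for the 18 guides and 0.47 for the other 829. Guides at 0 counts in DMSO with at least 100 initial counts were compared in the same way. Of the 5 such guides of these genes, 2 had more than 3 counts in apilimod, sgCAD_4 and sgDHODH_6, against 59.5% of the 42 guides of other genes. The highest count in apilimod among the 42 was 94, and 12 had 26 counts or more. The 27 and 26 counts of sgCAD_4 and sgDHODH_6 were within that range as raw counts, which were not matched for initial counts.

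**Figure D3:**
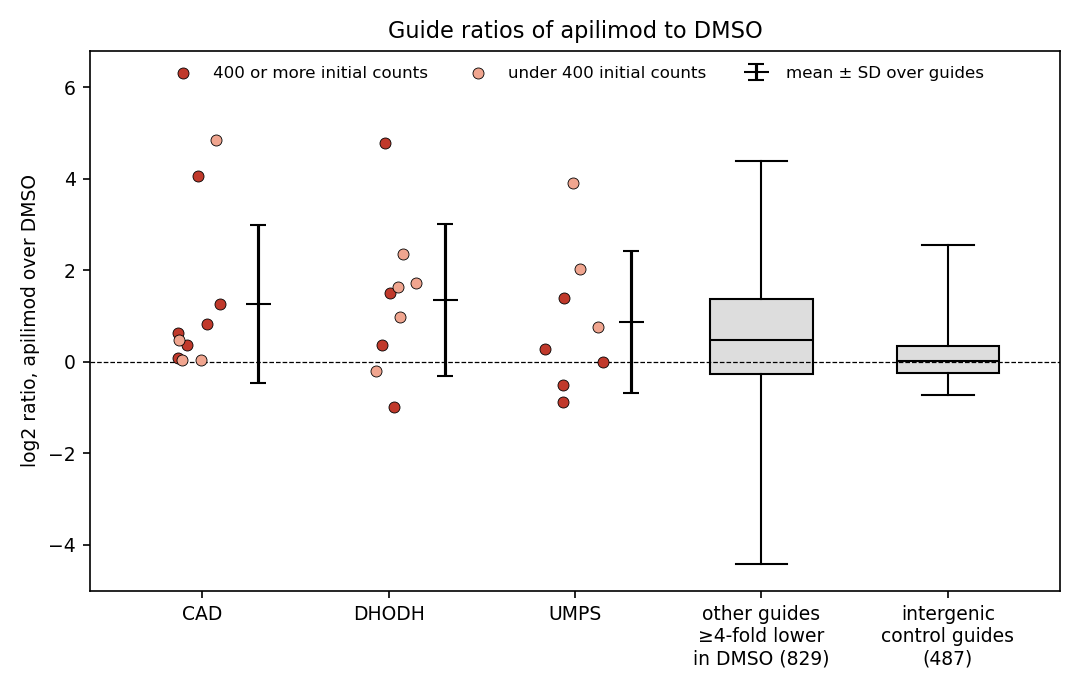
Log2 ratio of apilimod to DMSO for each scored guide against CAD, DHODH and UMPS, coloured by initial count, with the mean and SD over guides. Boxes show the median and quartiles, with whiskers over the central 95%, of 829 other guides at least 4-fold lower in DMSO and of 487 control guides. Most guides of these genes lie within the whiskers of the other depleted guides. That central 95% runs from −4.42 to 4.41, too wide for this to show a likeness.

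The ratio also varied with how abundant a guide was at the start. Among control guides the median log2 ratio of apilimod to DMSO was 1.60 for the 20 with 100 to under 200 initial counts, 0.31 for the 42 with 200 to under 400 and −0.03 for the 425 with at least 400. Their median log2 changes from the initial population were 1.91, 0.65 and 0.19 in apilimod, in the same order. In DMSO they were −0.06, 0.17 and 0.14. Across all 487 control guides the central 95% ran from −0.73 to 2.59, and sgCAD_4, sgCAD_10, sgDHODH_6 and sgUMPS_8 lay above it, while sgDHODH_7 at −0.99 and sgUMPS_5 at −0.88 lay below it. By class it ran from −0.71 to 1.42 from 400 initial counts upwards and from −1.35 to 3.38 for 200 to under 400. Against the control guides of its own class sgDHODH_5, at 1.50, also lay above, and the other placements were unchanged. Gene-targeting guides showed less of this variation with initial count, with a median ratio of 0.07 under 400 initial counts and −0.07 from 400 upwards. For the guides of these genes the median ratio was 1.31 over 12 guides under 400 initial counts, of which 6 were at least 2-fold higher in apilimod, and 0.37 over 15 guides from 400 upwards, of which 5 were. From 400 initial counts upwards the gene medians were 0.73 for CAD, 0.94 for DHODH and −0.01 for UMPS. The part of initial abundance in the higher ratios was not tested.

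At the level of genes, 46 had a DMSO score at or below −2. Their median log2 ratio of apilimod to DMSO was 0.10, with 26 of 46 above 0, and they ran from −0.85 for ATP6V0C, of the proton pump that acidifies lysosomes, to 1.35 for DHODH. DHODH, CAD and UMPS held the top of this order. They were chosen on both measures used here, so nothing is read from these places. Just below UMPS came CDIPT, the phosphatidylinositol synthase, at 0.87, RRM1, the large subunit of ribonucleotide reductase, at 0.85 and the stearoyl-CoA desaturase SCD at 0.66. CDIPT did not differ from UMPS by anything near the SD over guides of either gene.

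The genes nearest to each enzyme over the scores in the 2 arms came from several pathways. CAD was nearest to SCD, with scores of −3.15 in apilimod and −3.82 in DMSO at a distance of 0.548 log2 units, then to the thymidylate kinase DTYMK at 0.872 and to the oxidoreductase NDOR1 at 0.964. DHODH was nearest to CDIPT, with scores of −2.64 in apilimod and −3.51 in DMSO at a distance of 0.351, then to UMPS at 0.742 and to DDOST, a subunit of the oligosaccharyltransferase, at 0.806. UMPS was nearest to SCAP, the escort protein of the SREBP transcription factors, with scores of −2.24 in apilimod and −2.79 in DMSO at a distance of 0.234. DDOST at 0.303 and RRM1 at 0.355 followed. UMPS was thus among the neighbours of DHODH, and CAD stood further from any gene than the others did from theirs.

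The other genes of pyrimidine metabolism were set beside these enzymes from lists by function, with the median over all 2969 genes at −0.04 in apilimod, −0.03 in DMSO and −0.01 for the ratio of apilimod to DMSO. At least 2-fold lower gene scores were found for 7.07% of all genes in apilimod and 5.73% in DMSO. Counts for each list are over its members with a gene score, and some listed genes had none. None of the lists had a gene whose mean ratio was at least 2-fold higher in apilimod. For uptake and salvage of uridine and other pyrimidine nucleosides, 0 of 18 genes were at least 2-fold below the initial population in apilimod and 0 of 18 in DMSO. Their median log2 ratio of apilimod to DMSO was −0.05, from −0.39 for the uridine-cytidine kinase homologue UCKL1 to 0.41 for the uridine phosphorylase UPP2. For the steps from UMP to CTP and to deoxynucleotides, 6 of 17 genes were at least 2-fold lower in apilimod and 6 of 17 in DMSO. The median ratio there was 0.04, from −0.54 for the UMP-CMP kinase CMPK1 to 0.85 for RRM1. Breakdown of pyrimidines had 0 of 13 genes past 2-fold in either arm, with a median ratio of −0.10, from −0.44 for the dihydropyrimidinase DPYS to 0.47 for CDADC1, a cytidine deaminase family member.

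Genes that supply glutamine, aspartate and PRPP to the pathway had ratios spread around the median of all genes, while their median scores were lower, at −0.40 in apilimod and −0.32 in DMSO. In this list 6 of 24 were at least 2-fold below the initial population in apilimod and 3 of 24 in DMSO, with a median ratio of −0.01. The lowest was PGD, an enzyme of the pentose phosphate pathway, at −1.33, and PGD was the 1 list member whose mean ratio was at least 2-fold lower in apilimod, a fold reached by 0.472% of all genes. The highest was the mitochondrial carbamoyl-phosphate synthetase CPS1 at 0.45, a list member that makes carbamoyl phosphate rather than glutamine, aspartate or PRPP.

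The partners of DHODH in the respiratory chain had list medians of the ratio between −0.13 and −0.03, with single genes on either side. Ubiquinone synthesis had 4 of 14 genes at least 2-fold lower in apilimod and 3 of 14 in DMSO, and a median ratio of −0.13, from −0.78 for COQ4 to 0.00 for COQ2, the prenyltransferase of the pathway. Complex III reoxidizes the ubiquinol that DHODH makes, and its list includes assembly factors and the electron acceptor cytochrome c. Of the 18 genes on this list 11 were scored, with 6 of 11 at least 2-fold lower in apilimod and 6 of 11 in DMSO. Its median score was −1.29 in apilimod and −1.22 in DMSO and its median ratio −0.09, from −0.74 for CYCS, cytochrome c itself, to 0.57 for the assembly factor BCS1L. Without CYCS, 5 of 10 genes were past 2-fold in each arm, the median ratio was −0.05 and the lowest was the subunit UQCRB at −0.65. Other enzymes that reduce ubiquinone had 3 of 12 genes past 2-fold in each arm and a median ratio of −0.03, from −0.47 for SDHA of succinate dehydrogenase to 0.17 for the choline dehydrogenase CHDH.

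De novo purine synthesis, the other route that builds nucleotide bases, was also depleted in both arms. There 10 of 13 genes were at least 2-fold below the initial population in apilimod and 10 of 13 in DMSO, with median scores of −2.13 in apilimod and −1.91 in DMSO. Its median ratio of apilimod to DMSO was −0.30, from −0.80 for PFAS, an enzyme of the ring-building steps, to 0.02 for the adenylosuccinate synthase ADSSL1, and 2 of 13 genes were above 0. The 24 nucleotide synthesis genes used for scaling, which include the purine genes, had a median score of −1.50 in apilimod and −1.32 in DMSO and a median ratio of −0.05. Whether the ratios of CAD, DHODH and UMPS differ from those of these lists was not tested, since these genes were chosen for their ratios.

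**Figure D4:**
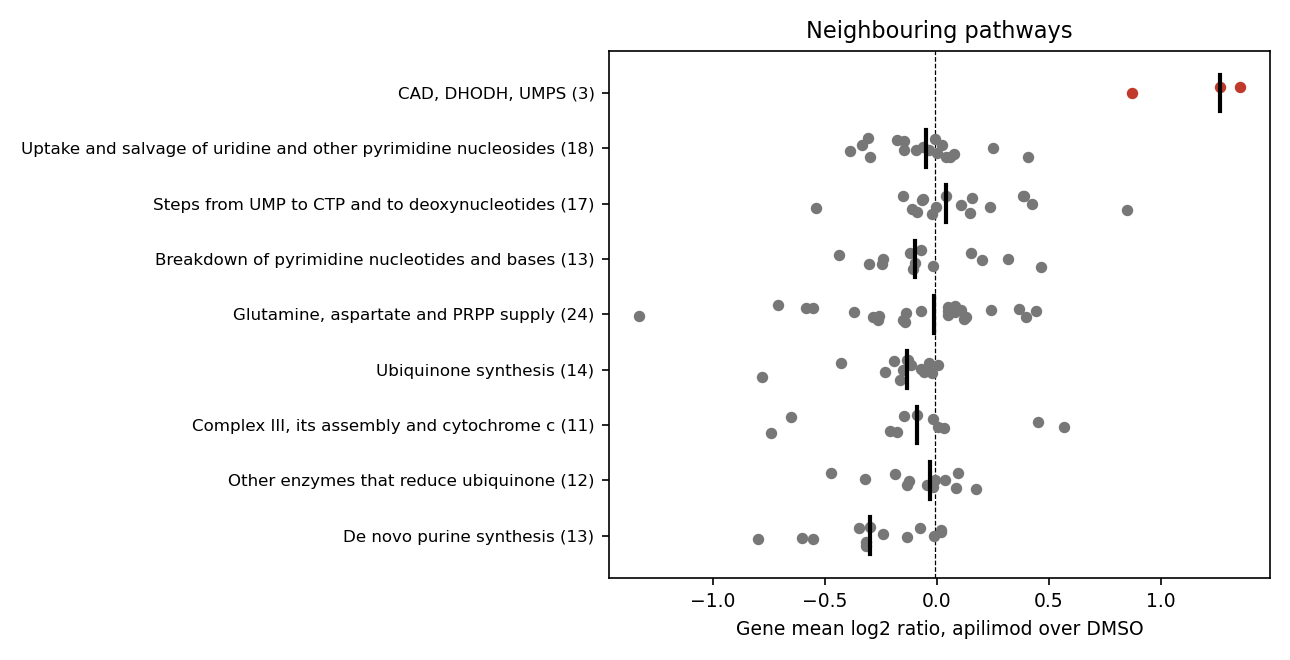
Mean log2 ratio of apilimod to DMSO of each gene in the lists by function, with CAD, DHODH and UMPS at 1.26, 1.35 and 0.87, the median of each list as a bar and the number of genes in brackets and the median of all genes as a dashed line. The lists' medians run from −0.30 for purine synthesis to 0.04 for the steps from UMP to CTP and deoxynucleotides.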

How the data were processed

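Guide counts were deposited by the authors as 1 raw count file per library and as a combined table, and 0 values differed between them. The submitters' processing notes name bcl2fastq, cutadapt 4.1, Bowtie2 2.4.5, MAGeCK 0.5.9.5 and the hg38 build. The counts are not normalized, and each group has 1 library. Here, guides under 100 initial counts were left out (1630 of 30197), which left 28080 gene-targeting and 487 control guides, and genes with at least 6 guides were scored (2969 of 2978). Ratios used library totals and a pseudocount of 1. A 2-fold change was the rule for counting, since 1 library per group allows no test. The genes and lists were chosen with earlier results of these data known. Genes named are the 3 enzymes, the 3 genes nearest to each over both scores, and the lowest and highest ratio of each list. ATP6V0C, CDIPT, RRM1 and SCD were also named as the ends of the order of depleted genes, after their values were seen, as was UQCRB. The study's reference of core essential genes was replaced by the list of 24 nucleotide synthesis genes. Alternatives were another pseudocount, guide minimum, scaling, summary over guides and leaving out each guide, and 4 more were chosen after seeing the data: counts of 0 set to 3, only guides over 3 counts in both arms, summed counts without each guide, and the complex III list without CYCS. Scripts were tested on simulated counts with counting error only, scaled to control guides rather than to the library totals used for the results. They were run with Python 3.11.15, numpy 2.4.6, pandas 2.3.3, scipy 1.17.1 and matplotlib 3.10.9.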

Additional observations from a re-analysis of the deposited data

How the results depend on the processing

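Of 86 values recomputed under other settings, 73 moved by less than the standard error over guides, 13 moved by more and 0 changed sign. Guides are not replicates, so this standard error is only a yardstick, and a wide one. Some values could not move or could hardly move. All CAD guides passed the minimum, so keeping every guide left the CAD scores and ratio as they were. Each other scaling shifts all guides of a comparison alike. For the log2 change of apilimod from the initial population, CAD was −1.95 with guides of at least 300 initial counts, and from summed counts CAD was −1.45 and UMPS −1.50. For DMSO, CAD was −3.26 with a pseudocount of 10. Medians over guides in DMSO were −3.28 for CAD, −2.37 for DHODH and −2.09 for UMPS, and summed counts gave −2.09 for CAD and −1.79 for UMPS. For the ratio of apilimod to DMSO, CAD was 0.56 as a median and 0.64 from summed counts, and UMPS was 0.29 from summed counts. The z of CAD was 4.57 from unscaled scores.

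By the size of the shift, the UMPS ratio was also 0.50 with a pseudocount of 10, 0.55 with every guide kept and 0.52 as a median. DHODH had a ratio of 0.87 with a pseudocount of 10. The rank of UMPS from the highest ratio was 6 as reported, 80 with a pseudocount of 10, 157 with every guide kept, 40 by median and 190 by summed counts. CAD ranked 29th by median and 12th by summed counts, and DHODH ranked within the top 3 with the other pseudocount, guide minimums, scalings and summaries over guides, and ranks were not taken for the other alternatives. Ranks from the lowest DMSO score also shifted, from 1 for CAD, 4 for DHODH and 10 for UMPS as reported. By median they were 2, 9 and 17, and by summed counts 9, 1 and 24, in the same order of genes. With 0 counts set to 3, the DMSO scores were −3.76 for CAD, −3.47 for DHODH and −2.74 for UMPS, and CAD in apilimod was −2.70.

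Leaving out each guide in turn gave ranges in apilimod of −3.42 to −2.56 for CAD, −2.68 to −1.97 for DHODH and −2.34 to −1.59 for UMPS. In DMSO they were −4.73 to −3.90, −4.00 to −2.99 and −3.29 to −2.30. The ratio of apilimod to DMSO ran from 0.87 to 1.40 for CAD, 0.92 to 1.65 for DHODH and 0.44 to 1.12 for UMPS. UMPS has no value at 300 initial counts, where fewer than 6 guides were left. The cause of these shifts was not tested. No paired analysis was possible because each group has 1 library. Counts under about 10 in DMSO limit the precision of the largest ratios.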
